A study of Mus musculus with 2 samples.

Results

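Collagens are secreted or membrane-bound proteins built from 3 chains wound into a triple helix, and the 40 genes described here encode most of the mouse chains. They were chosen by name, as every gene whose symbol is Col, a number, the letter a and a number, out of 32285 genes counted in each library. The 4 chains of the vascular basement membrane, Col4a1, Col4a2, Col15a1 and Col18a1, were left out.

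The counts come from single-cell RNA sequencing of mouse embryos at E13.5, in which Isl1-Cre, a recombinase active in cells of the Isl1 lineage, switched on the fluorescent reporter R26R-eYFP. Control embryos carried Isl1-Cre and R26R-eYFP, and mutant embryos carried both and also Pik3caH1047R, an activated form of the catalytic subunit of PI3-kinase that the same recombinase switches on. The samples are labelled as pharyngeal arch, and the protocol describes the part of the body above the liver, dissociated with collagenase and sorted for eYFP. Each genotype was 1 library made from 3 pooled embryos, so no difference between genotypes has a replicate check, and no p-value is given.

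Cells were kept when over 2000 but under 9000 genes were detected and mitochondrial genes took under 10% of the UMIs (unique molecular identifiers, one for each captured transcript), and 2783 control cells with 63153191 UMIs and 3489 mutant cells with 69717583 UMIs remained. The median per cell was 20412 UMIs in control and 16839 in mutant. By Xist and Y-linked genes the pools also differed in sex, since 95.5% of the kept control cells were female-like, and of the mutant cells 33.6% were female-like while 53.3% were male-like. The libraries shared 12 barcodes among the kept cells. Pik3ca itself was at 45.3 CPM (UMIs of the gene per 1000000 UMIs) in endothelial-like cells of both libraries, and these counts give no separate value for the mutant allele.

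The triple helix forms where each triplet of residues starts with glycine, and the fibril-forming chains carry 1 long run of such triplets while the other families carry shorter, interrupted ones. Type I and type III collagens make the fibrils of skin, tendon and vessel walls, and type II collagen, with types IX and XI, makes those of cartilage. Other members sit on the surface of fibrils (the FACIT group), form beaded filaments around cells or networks in basement membranes, anchor epithelia, or span the cell membrane.

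The reading frame shows this family trait directly. In the longest protein-coding transcript of each gene (GENCODE annotation, GRCm38), the longest unbroken run of triplets had a median of 338 triplets over the 11 fibril-forming genes, with a range of 216 to 344. The 9 FACIT genes had runs of 32 to 113 triplets, the 6 beaded-filament genes 37 to 87 and the 4 membrane-spanning genes 37 to 56. The first 7 triplets of that run are shown for 6 genes described at length among the results (the type I and III chains, 2 cartilage chains and Col23a1 of EC-like cells), with the first codon of each triplet, which encodes glycine, in capitals.
Col1a1: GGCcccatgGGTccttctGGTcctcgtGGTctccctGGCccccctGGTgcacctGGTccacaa
Col1a2: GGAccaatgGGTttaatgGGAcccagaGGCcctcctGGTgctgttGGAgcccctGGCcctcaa
Col2a1: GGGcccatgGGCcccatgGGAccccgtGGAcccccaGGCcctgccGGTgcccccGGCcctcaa
Col3a1: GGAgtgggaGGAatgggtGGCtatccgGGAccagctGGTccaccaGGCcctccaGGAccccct
Col9a1: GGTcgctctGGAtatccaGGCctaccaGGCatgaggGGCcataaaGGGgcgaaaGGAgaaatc
Col23a1: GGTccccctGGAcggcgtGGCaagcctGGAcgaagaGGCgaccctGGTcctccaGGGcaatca
Read over the exons, these stretches lie at chr11:94939451-94939912 for Col1a1 (plus strand, exons 6 to 8), chr6:4512406-4515489 for Col1a2 (plus strand, exons 6 to 8) and chr15:97996534-97997320 for Col2a1 (minus strand, exons 8 to 10). Those of Col3a1, Col9a1 and Col23a1 lie at chr1:45323762-45325386 (plus strand, exons 5 to 6), chr1:24209080-24210399 (plus strand, exons 17 to 18) and chr11:51316962-51527876 (plus strand, exons 2 to 5). The whole run was 338 triplets in Col1a1, 339 in Col1a2 and Col2a1, 344 in Col3a1, 113 in Col9a1 and 43 in Col23a1.

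Several members are neighbours on the chromosome. Col3a1 and Col5a2, both fibril-forming, lie 24614 bases apart on chromosome 1, and Col4a4 and Col4a3, 2 basement membrane chains, start 71 bases apart on opposite strands of it. Col4a6 and Col4a5 start 1308 bases apart on chromosome X.

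Cells were clustered without the collagen genes, and clusters were named from markers that hold no collagen. The named classes were mesenchyme-like, mesothelium-like, branchial muscle-like, endothelial-like (EC-like), epithelium-like, cardiomyocyte-like, neural crest-like and neuron-like cells, hepatoblast-like cells that were in the mutant library only, and an unnamed cluster led by globin and macrophage genes together. UMIs of a gene were summed over the cells of a class in each library and divided by the class total to give CPM. These are counts of transcript 5′ ends and are not scaled by length, so levels are compared between classes and libraries for the same gene, not as amounts of protein between genes. Intervals in parentheses are 95% intervals for counting error only. A gene was tested with at least 20 UMIs over both libraries in the class, and it is called higher or lower in the mutant library when the whole interval of its log2 ratio (mutant over control) lay beyond 1.5-fold.

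Collagen transcripts were concentrated in mesenchyme-like and mesothelium-like cells. The 40 genes together took 0.899% of all UMIs in the 978 control mesenchyme-like cells and 0.464% in the 628 mutant ones, and 0.770% and 0.708% in the 70 and 68 mesothelium-like cells. Neural crest-like cells followed with 0.245% in 54 control cells and 0.126% in 24 mutant cells. In EC-like, branchial muscle-like, epithelium-like and neuron-like cells the share lay between 0.0854% and 0.117% in control and between 0.0222% and 0.0928% in mutant. The unnamed globin and macrophage cluster had the lowest control share, 0.0190%, and 0.00496% in mutant.

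With at least 20 UMIs in each library, 38 of the 40 genes were measured. Col4a3 had 22 UMIs in control and 19 in mutant, and Col10a1, a chain of hypertrophic cartilage, had 6 in each, so neither was measured. For 29 of the 38, the same class had the highest level in both libraries, mesenchyme-like for 14, mesothelium-like for 8, neural crest-like for 5 and epithelium-like for 2. The 14 mesenchyme-like genes held the cartilage chains Col2a1, Col9a1, Col9a2, Col9a3, Col11a1 and Col11a2. The 8 of mesothelium-like cells held Col1a1, Col3a1, 3 basement membrane chains (Col4a4, Col4a5, Col4a6) and the 3 alternative chains of type VI collagen, Col6a4, Col6a5 and Col6a6. Col7a1 and Col17a1, which tie epithelia to the tissue under them, were highest in epithelium-like cells. The 20 UMIs were counted over all classes of a library, and the highest class did not always stand apart. For Col5a3, Col19a1 and Col25a1 its interval overlapped that of the second class in both libraries. The intervals overlapped in control for Col4a6 and Col27a1. In mutant they overlapped for Col4a4, Col5a1, Col6a2, Col6a4, Col6a5, Col11a2, Col24a1 and Col28a1.

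**Figure D1:**
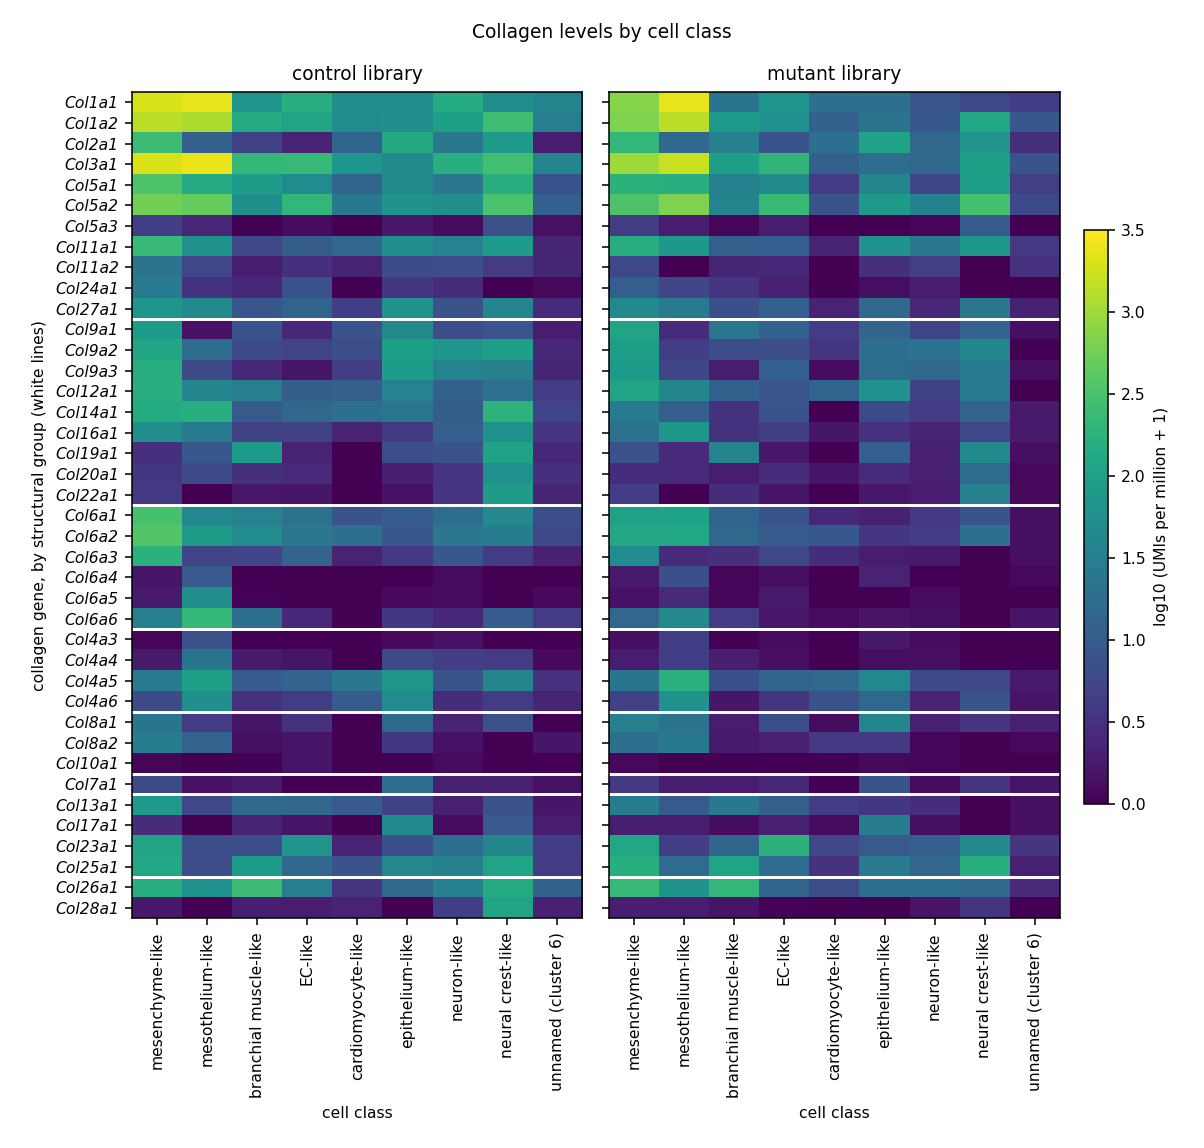
Levels of the collagen genes by cell class in the control and mutant libraries, as CPM on a log scale, with genes grouped by structural family. Mesenchyme-like and mesothelium-like cells carried the highest levels of most fibril-forming genes, such as 2415 CPM of Col1a1 in control mesothelium-like cells.

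Because mesenchymal cells held so much collagen RNA, RNA released from them into the suspension could be counted in other cells, and 12 mesenchyme genes that are not collagens (among them Dcn, Lum, Postn, Ogn and Mfap4) were followed in each class beside the collagens. Their summed level was 3083 CPM in control and 1771 CPM in mutant mesenchyme-like cells, 93.2 and 25.0 CPM in the unnamed cluster, and between 155 and 443 CPM in control EC-like, muscle-like, epithelium-like, neuron-like and cardiomyocyte-like cells. In the mutant library the same 5 classes held 37.8 to 424 CPM. Dpt was at 0 UMIs in every mutant class, mesenchyme-like cells included. In EC-like cells the median of the 12 genes was 7.36% of their mesenchyme-like level in control and 6.62% in mutant, and the highest was 16.7% (Dpt) and 48.5% (Postn).

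A collagen with at least 20 UMIs in a class was placed above background when its whole counting interval exceeded the highest of these percentages. The interval was that of its CPM in the class, taken as a percentage of its mesenchyme-like CPM. A collagen whose percentage was higher but whose interval reached down to that limit was not told apart from background. By this reading, Col4a5, Col5a2 and Col23a1 stood above it in EC-like cells of both libraries and Col20a1 in the mutant library. In branchial muscle-like cells the limit was set by Ogn, at 29.4% in control and 80.2% in mutant, and 9 and 2 collagens stood above it. Col19a1 and Col26a1 did so in both libraries, and Col25a1 in control only. In epithelium-like cells 13 collagens in control and 9 in mutant stood above the limit. Since 1 gene sets the limit, a collagen under it was not shown to be background. In the unnamed cluster none did, of 8 collagens with at least 20 UMIs in control and 3 in mutant.

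**Figure D2:**
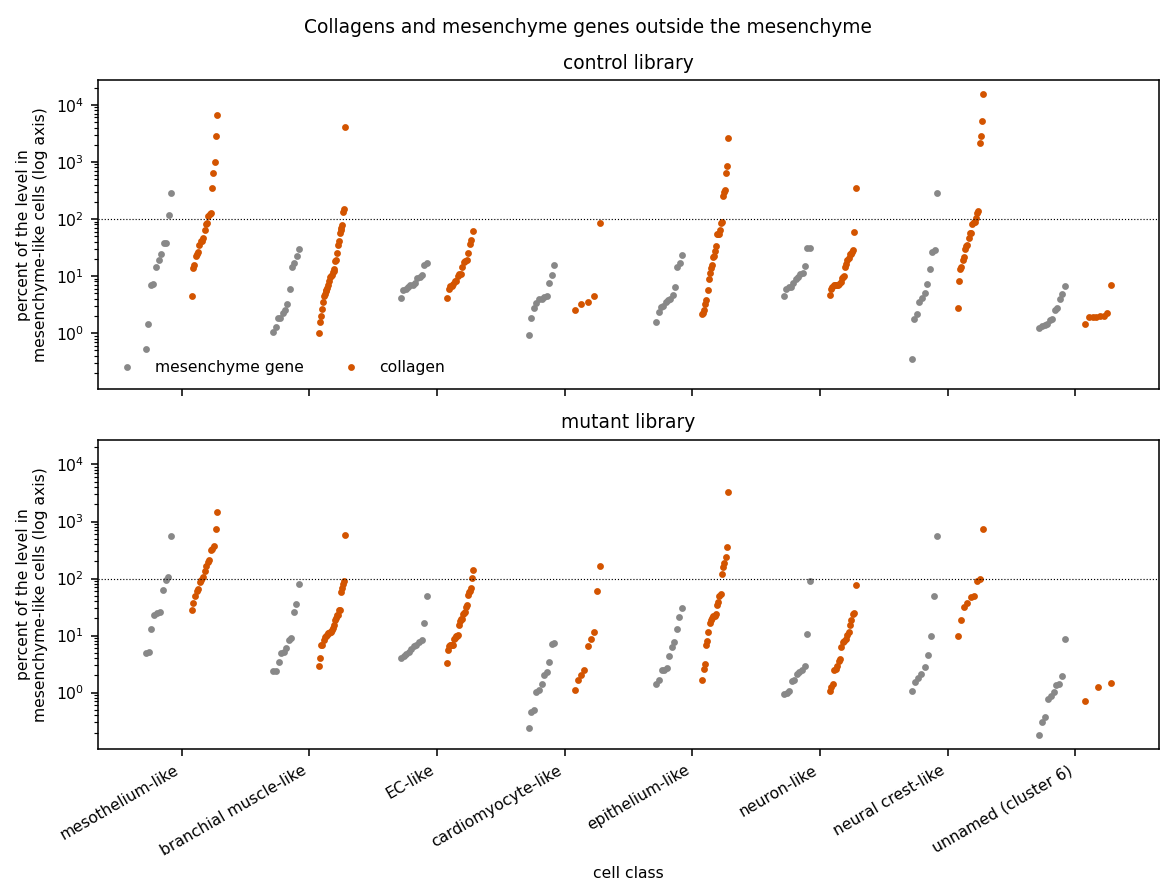
Collagens and 12 other mesenchyme genes in each class outside mesenchyme, as a percentage of their level in mesenchyme-like cells of the same library, on a log scale. Col23a1 in EC-like cells sat at 60.2% in control and 142% in mutant, above every mesenchyme gene of that class, whereas Col1a1 sat at 8.22% and 9.13%.

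Ratios were taken in the 7 classes that had at least 50 cells in both libraries. In each of them, more collagens were called lower than called higher in the mutant library. In EC-like and mesothelium-like cells, though, 17 collagens each were called neither way, and the mesothelium-like median was 0.19. In mesenchyme-like cells, 38 of the 40 were tested, 1 was higher and 15 were lower, where 5.7% of all 15935 tested genes were higher and 3.96% lower. The median log2 ratio was -0.65 over these collagens and 0.02 over all tested genes. In branchial muscle-like cells 5 of 35 were higher and 13 lower (7.8% and 3.97% of all genes), with medians of -0.64 and 0.02. In epithelium-like cells 1 of 29 was higher and 13 were lower (3.56% and 3.84%), with medians of -0.75 and -0.05.

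Neuron-like cells had the lowest median as counted, but not once a mesenchyme background was taken off. There, 0 of 23 collagens were higher and 15 were lower (2.32% and 7.52% of all genes), with a median of -1.65 against -0.08. After subtraction of each collagen's mesenchyme-like level times the median percentage of the 12 mesenchyme genes, the neuron-like median was -0.0053 over 19 collagens, and after thinning every cell to 5000 UMIs 7 of 14 were lower. The mesenchyme genes themselves had a median log2 ratio of -2.14 there, over the 10 tested, and of -2.09 in cardiomyocyte-like cells, over the 5 tested. Mfap4 was the exception in neuron-like cells, at 207 CPM in control and 389 CPM in mutant.

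In cardiomyocyte-like cells 0 of 11 were higher and 5 lower (1.71% and 4.12%), with medians of -1.15 and -0.05. None of these 5 calls was left without the cells of high doublet score, when 3 collagens were tested, and the median was -0.36 after the subtraction. EC-like cells stood nearer the background, with 4 of 28 higher and 7 lower (4.46% and 4.75%) and medians of -0.17 and -0.07. The 7 lower fell to 2, with 5 higher, when the libraries were clustered without integration. With classes set from marker levels, 4 were lower and 3 higher. The share of all genes called was not taken under either setting. Under the alternatives the median over the EC-like collagens ran from -0.39 to 0.32. Mesothelium-like cells had 3 of 25 higher and 5 lower (7.16% and 2.6%), with medians of 0.19 and 0.05.

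**Figure D3:**
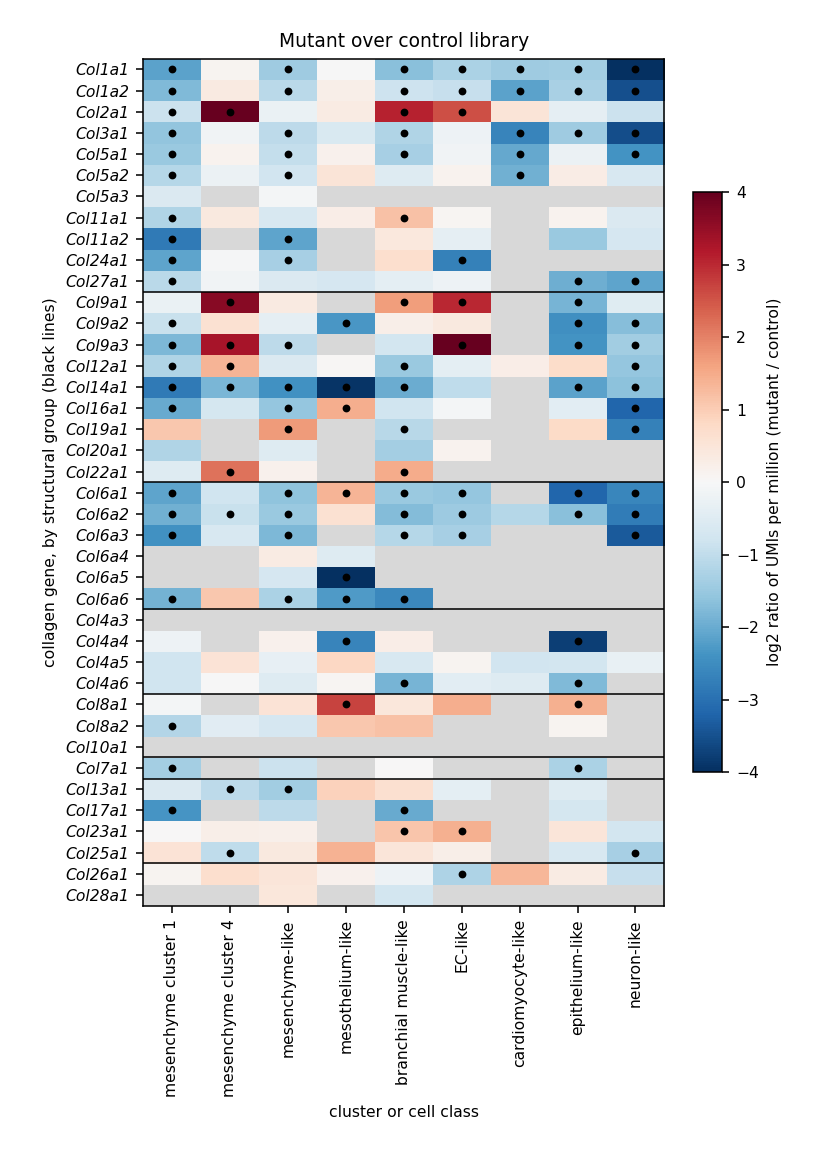
Log2 ratio of mutant over control CPM for each collagen (rows) in mesenchyme-like clusters 1 and 4 and in the 7 compared classes (columns), with black dots where the counting interval lay beyond 1.5-fold and grey cells under 20 UMIs. The beaded-filament and fibril-forming genes were mostly lower in mesenchyme-like cells, and Col9a1, Col9a3, Col2a1 and Col23a1 were higher in EC-like cells.

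Among the fibril-forming genes, 7 of 11 were lower in mutant mesenchyme-like cells and 0 were higher (3.96% and 5.7% of all genes). Col1a1, the main chain of type I collagen (ENSMUSG00000001506, chromosome 11, 94936224 to 94953042), was at 1912 CPM in control and 720.3 CPM in mutant, a log2 ratio of -1.41 (-1.44 to -1.37). Col1a2, its partner chain, was at 1380.2 and 660.0 CPM (log2 ratio -1.06), and Col3a1, the chain of type III collagen, at 2042 and 982 CPM (-1.06). Col5a1 and Col5a2, type V chains, which help to set the width of type I fibrils, were lower as well, the latter at 569 and 335 CPM (-0.76) and the former at 335 and 175 CPM (-0.94). The lowest of the group by ratio was Col11a2, at 20.5 and 4.76 CPM (-2.11), followed by Col1a1 and Col24a1 (26.2 and 10.4 CPM). Col2a1, Col11a1, Col27a1 and Col5a3 did not pass 1.5-fold in the class as a whole, with log2 ratios between -0.65 and -0.08.

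Mesenchyme-like cells were 3 clusters whose proportions differed between libraries, so the chains were also followed within each. Cluster 1, led by Prrx1, Twist1 and Lum, held 579 control and 510 mutant cells, and cluster 4, with Tbx4, Wnt2 and Adh1 among its leading genes, had 361 and 91. In cluster 4 Wnt2 was at 167 and 32.7 CPM (-2.35), Tbx4 at 160 and 105 CPM (-0.61, not called) and Twist1 at 6.98 and 26.9 CPM (1.95). Cells of cluster 4 thus differed between libraries in other genes too, and whether they were the same cell types was not tested. In cluster 1, 22 of 35 tested collagens were lower and 0 were higher (5.91% and 4.05% of all genes there), with a median of -1.20. In cluster 4, 4 of 27 were lower and 5 higher (1.84% and 4.16% of all genes), with a median of 0.10.

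The type I and III chains differed between libraries in cluster 1 and hardly in cluster 4. Col1a1 was at 2968 CPM in control and 677 CPM in mutant cells of cluster 1, a log2 ratio of -2.13 (-2.17 to -2.09), against 786 and 843 CPM in cluster 4, a ratio of 0.10 (0.02 to 0.18). Col3a1 was at 3036 and 1014 CPM in cluster 1 (-1.58) and at 985 and 892 CPM in cluster 4 (-0.14). Col1a2 was at 2165 and 643 CPM in cluster 1 (-1.75) and at 534 and 685 CPM in cluster 4 (0.36). In the mutant library, the Col1a1 level of both clusters was thus similar, whereas in control that of cluster 1 was the higher by far. A smooth muscle cluster, 13, with 38 control and 27 mutant cells and so no ratio, had 887 and 874 CPM of Col1a1.

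The lower Col1a1 in cluster 1 was spread over its cells. At least 10 Col1a1 UMIs were found in 80.1% of the 579 control cells and 34.5% of the 510 mutant cells, and the 5% of cells with the most Col1a1 held 24.8% and 28.4% of its UMIs. The median depth of these cells was 15185 UMIs in control and 13101 in mutant. Dcn, a small proteoglycan that binds collagen fibrils, moved with it, from 989 to 104 CPM.

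In cluster 1, mutant cells of either sex call had the lower levels. Col1a1 in cluster 1 was at 2968 CPM in the 570 female-like control cells, 777 CPM in the 166 female-like mutant cells and 640.0 CPM in the 295 male-like mutant cells. Col3a1 showed the same order, 3030 CPM, 1186 CPM and 971 CPM. This split could not be made in cluster 4, which had too few female-like mutant cells for a level. There, Col1a1 was at 795 CPM in 349 female-like control cells and 747 CPM in 77 male-like mutant cells. The library ratios of cluster 4 thus set mostly female-like cells against mostly male-like ones.

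**Figure D4:**
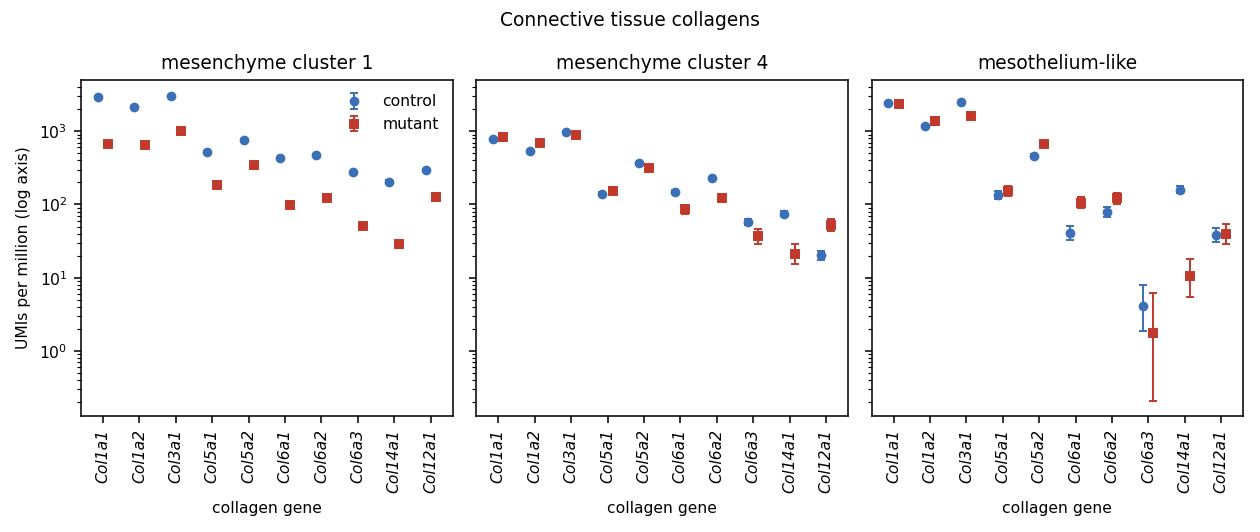
Fibril-forming collagens, the type VI chains, Col14a1 and Col12a1 in mesenchyme-like clusters 1 and 4 and in mesothelium-like cells of the control and mutant libraries, in CPM on a log scale, with bars for 95% exact Poisson intervals. Col1a1 differed between libraries in cluster 1 (2968 and 677 CPM) and little in cluster 4 (786 and 843 CPM) or mesothelium-like cells (2415 and 2384 CPM).

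In mesothelium-like cells, the lining of the body cavities and heart, 0 of 8 tested fibril-forming genes were called in either direction. There, 7.16% of all genes were higher and 2.6% lower, so 0 of 8 is near those shares. Col1a1 was at 2415 CPM in control and 2384 CPM in mutant, a log2 ratio of -0.02 (-0.09 to 0.05), and Col1a2 was at 1173 and 1378 CPM (0.23). Col5a2 was at 463 and 659 CPM (0.51) and Col3a1 at 2466 and 1602 CPM (-0.62, interval -0.70 to -0.55). The class was 70 and 68 cells, and the mutant cells were shallower, with a median of 14079.5 UMIs against 28114. Within it, Col1a1 was at 2471 CPM in female-like control cells, 4040.1 CPM in female-like mutant cells and 1559 CPM in male-like mutant cells, so the equal class levels joined unlike values.

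Outside mesenchyme-like and mesothelium-like cells, the type I and III chains were lower in the mutant library in most classes, at levels within the range of the mesenchyme genes. In neuron-like cells Col1a1 was at 140.1 CPM in control and 7.77 CPM in mutant (log2 ratio -4.17), Col3a1 at 162 and 13.98 CPM (-3.54) and Col1a2 at 95.2 and 8.29 CPM (-3.52). In cardiomyocyte-like cells Col3a1 was at 67.0 and 10.8 CPM (-2.64), Col1a2 at 48.5 and 11.1 CPM (-2.13), and Col1a1 at 48.5 and 18.2 CPM (-1.42). After the subtraction of the mesenchyme background, Col1a1, Col1a2 and Col3a1 of neuron-like cells were at the floor of 3 counts in both libraries and had no ratio, and Col1a1 of cardiomyocyte-like cells had a ratio of 1.22 with control at the floor. Col5a2 was at 25.4 and 6.77 CPM and Col5a1 at 12.7 and 3.08 CPM in cardiomyocyte-like cells, both called lower but not without the cells of high doublet score. Beside them, Dcn was at 51.6 and 1.04 CPM in neuron-like cells and 23.1 and 1.23 CPM in cardiomyocyte-like cells. Epithelium-like cells had 49.2 and 18.8 CPM of Col1a1 and 44.8 and 16.6 CPM of Col3a1. The unnamed cluster showed the same order, with Col1a1 at 36.9 and 3.40 CPM and Col3a1 at 39.7 and 7.00 CPM.

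Branchial muscle-like cells had Col3a1 at 212 and 92.1 CPM (-1.21), Col1a2 at 135 and 75.6 CPM (-0.84), Col5a1 at 83.4 and 32.9 CPM (-1.34) and Col1a1 at 67.5 and 21.1 CPM (-1.68). The balance of the type I chains was different from that of mesenchyme. There were 0.500 Col1a1 UMIs for each Col1a2 UMI in control muscle-like cells (0.470 to 0.531) and 0.279 in mutant (0.250 to 0.311), against 1.39 and 1.09 in mesenchyme-like cells and 2.06 and 1.73 in mesothelium-like cells. Neural crest-like cells had the lowest ratio, 0.196 in control (0.141 to 0.267) and 0.0385 in mutant, from 2 Col1a1 and 52 Col1a2 UMIs.

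In EC-like cells, Col3a1 was at 221 and 191 CPM (-0.21), Col5a2 at 204 and 226 CPM (0.14), Col1a1 at 157 and 65.8 CPM (-1.26), and Col1a2 at 110.5 and 58.0 CPM (-0.93). The same subtraction turned the Col1a1 ratio to 0.13. The Col1a1 came from few cells, since 5% of them held 82.3% of its UMIs in control and 89.1% in mutant. In a finer clustering, a cluster led by Emcn, Flt1 and Kdr with 121 control and 607 mutant cells had 44.5 and 4.71 CPM of Col1a1 (-3.24) and 81.3 and 17.4 CPM of Col3a1 (-2.23). An arterial cluster led by Gja4 and Eln, with 40 and 144 cells, had 611 and 392.2 CPM of Col1a1, 782 and 1040.0 CPM of Col3a1 and 422 and 690.4 CPM of Col5a2. The arterial cells thus held most of the type I and III transcripts of the class, with too few control cells for a ratio. Col24a1, a minor fibrillar chain, was at 6.51 and 1.00 CPM (-2.70, interval -3.74 to -1.70) in the class, from 23 and 15 UMIs.

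The cartilage chains were mostly lower in cluster 1, like the type I chains, and 3 of them were higher in cluster 4. Col2a1, the chain of type II collagen (ENSMUSG00000022483, chromosome 15, 97975602 to 98004695), was at 249 CPM in control and 208 CPM in mutant mesenchyme-like cells, a log2 ratio of -0.26 (-0.33 to -0.19). In cluster 1 it was at 483 and 265 CPM (-0.87) and in cluster 4 at 1.37 and 45.2 CPM (5.04, interval 4.17 to 6.05). Col9a1, a type IX chain that decorates type II fibrils (ENSMUSG00000026147, chromosome 1, 24177610 to 24252684), was at 164 and 136 CPM in cluster 1 (-0.27) and at 2.63 and 32.7 CPM in cluster 4 (3.64). Col9a3, another type IX chain, was at 292 and 84.3 CPM in cluster 1 (-1.79) and at 5.49 and 54.4 CPM in cluster 4 (3.31). Also lower in cluster 1 were Col11a2, at 39.2 and 5.57 CPM (-2.81), Col11a1, at 416 and 180 CPM (-1.20), and Col9a2, at 196 and 105 CPM (-0.90). Of the 6 cartilage chains, 5 were thus lower in cluster 1, where 5.91% of all genes were. In cluster 4, 5 were tested and 3 were higher, where 4.16% of all genes were, and Col9a2 and Col11a1 were not called.

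How the Col2a1 transcripts were shared among cells also differed. In cluster 1, 5% of the cells (29 of 579) held 89.4% of the Col2a1 UMIs in control, and 5% (26 of 510) held 51.2% in mutant. For Col9a3 these shares were 90.6% and 64.5%. Cells with at least 10 Col2a1 UMIs were 7.08% of control and 10.8% of mutant cells of the cluster. In control, Col2a1 was thus the product of a small set of cells with very high counts, and in mutant it was thinner and wider. In cluster 4, the highest 5 of the 91 mutant cells held 47.9% of the 94 Col2a1 UMIs. For Col9a1 and Col9a3 the highest 5 held 60.3% of 68 and 56.6% of 113 UMIs.

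Other cartilage genes were counted beside these chains. Acan, the main cartilage proteoglycan, was at 26.3 and 2.20 CPM in cluster 1, Cnmd at 102 and 9.33 CPM and Hapln1 at 77.8 and 10.5 CPM. Sox9, a transcription factor that drives type II collagen, was at 141 and 184 CPM in cluster 1 and at 24.5 and 142 CPM in cluster 4. In cluster 4, Acan was at 0.114 CPM in control, from 1 UMI, and at 0 UMIs in mutant. Cnmd had 6 and 1 UMIs there, and Hapln1, with 22 and 3, was not called. Matn4, another cartilage marker, was at 144 and 49.1 CPM in cluster 1 (-1.56). In cluster 4 it was at 6.86 and 48.1 CPM (2.81, interval 2.33 to 3.30). Sox6 was at 126 and 94.4 CPM in cluster 1, not called, and at 25.0 and 55.8 CPM in cluster 4 (1.16). Acan, Cnmd, Hapln1 and Matn4 were thus lower in cluster 1, and Sox9, Sox6 and Matn4 were higher in cluster 4.

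The cartilage chains of cluster 1 differed between mutant cells of either sex call. Col2a1 was at 489 CPM in female-like control cells, 455 CPM in female-like mutant cells and 160 CPM in male-like mutant cells, and Col9a1 was at 165, 221 and 91.0 CPM. The other 4 chains were lower in female-like mutant cells too, Col9a3 at 295, 108 and 69.9 CPM, Col11a1 at 421, 240 and 153 CPM, Col9a2 at 197, 139 and 89.4 CPM and Col11a2 at 39.8, 7.77 and 4.02 CPM in the same order. All 6 chains were lowest in the male-like mutant cells, and sex, embryo and dissection cannot be told apart here. In cluster 4 the 77 male-like mutant cells had 46.3 CPM of Col2a1 against 1.40 CPM in the 349 female-like control cells. Female-like mutant cells were too few there for a level, so sex and genotype were not separated in that cluster.

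**Figure D5:**
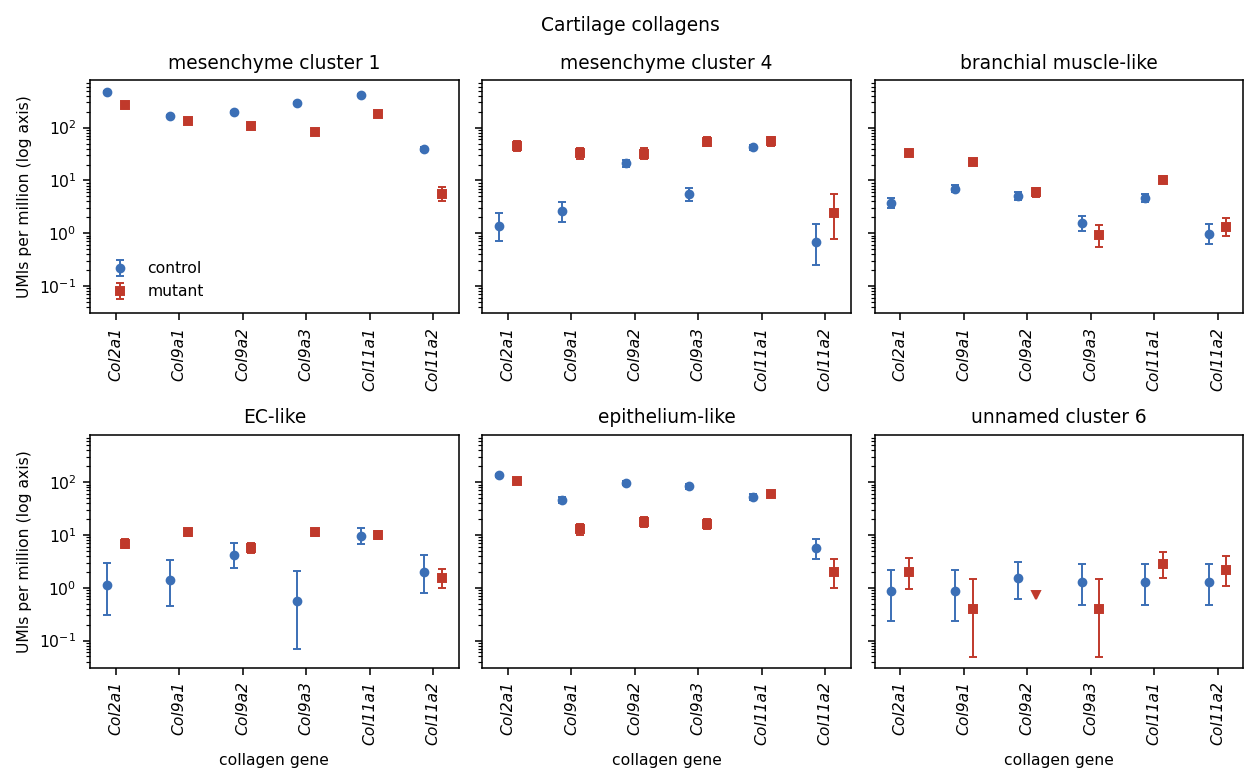
Cartilage collagens by class or cluster in the control and mutant libraries, in CPM on a log scale, with bars for 95% exact Poisson intervals and triangles for the upper limit of a gene at 0. Col2a1 was higher in mutant branchial muscle-like cells (3.81 and 32.4 CPM) and in mesenchyme-like cluster 4 (1.37 and 45.2 CPM), and lower in cluster 1 (483 and 265 CPM).

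Branchial muscle-like cells were the largest class outside mesenchyme with higher cartilage chains in the mutant library. Col2a1 was at 3.81 CPM in control and 32.4 CPM in mutant, a log2 ratio of 3.09 (2.76 to 3.42). That ratio was 0.76 with classes set from marker levels and 7.25 after subtraction of the mesenchyme background, with control then at the floor of 3 counts, and lay between 3.06 and 3.51 under the other alternatives. Col9a1 was at 6.99 and 22.4 CPM (1.68). Col11a1, a type XI chain, was at 4.67 and 10.4 CPM (1.16, but -1.23 with classes set from marker levels), while Col9a2 (5.06 and 5.95 CPM) and Col9a3 (1.54 and 0.923 CPM) were not called. Sox9 and Sox5 were higher as well, at 9.17 and 28.6 CPM and at 4.07 and 16.0 CPM, and Sox6 was lower, at 112 and 50.4 CPM. The higher chains were thus 3 of the cartilage set and not the whole of it.

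All 3 muscle-like clusters had more Col2a1 in the mutant library. Cluster 0, led by Msc and Myf5, had 4.41 and 33.8 CPM, cluster 8 had 4.65 and 81.1 CPM, and cluster 7, with Mylpf and Myh3, had 0.764 and 6.99 CPM. Cluster 8 was the shallowest of the 3, with medians of 10155 and 8935.5 UMIs, and 3 of 14 muscle markers were raised in it. A finer cluster led by Bmpr1b and Lama2 had median mitochondrial shares of 5.36% and 4.30%, against 1.33% and 1.25% in one led by Msc. In cluster 0 the level was 34.4 CPM in female-like and 31.4 CPM in male-like mutant cells. After every cell was thinned to 5000 UMIs, 1.49% of control and 15.2% of mutant muscle-like cells had a Col2a1 UMI (7.33% and 36.3% unthinned), against 0.588% and 2.35% in the unnamed cluster (2.30% and 4.55% unthinned). The median depth was 26389 and 22369 UMIs in muscle-like cells and 25411.5 and 27322 in the unnamed cluster. Col2a1 in mutant muscle-like cells was 15.6% of its mesenchyme-like level, above 8 of the 11 mesenchyme genes with UMIs there (median 6.18%) and under Mfap4 (25.8%), Postn (35.2%) and Ogn (80.2%).

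In EC-like cells 3 cartilage chains were also higher, at low levels. Col9a3 was at 0.566 and 11.2 CPM (4.30, interval 2.43 to 7.36), Col9a1 at 1.42 and 11.4 CPM (3.0) and Col2a1 at 1.13 and 6.82 CPM (2.59). The control values rested on 2, 5 and 4 UMIs. In the mutant library 5% of the cells held all 102 Col2a1 UMIs and 91.8% of those of Col9a1. The arterial finer cluster had 54.6 CPM of Col9a1 and 53.9 CPM of Col9a3 in mutant, against 2.35 and 1.78 CPM in the larger finer cluster. These chains lay under the highest mesenchyme gene of the class (Postn, 48.5%), at 10.4% for Col9a1 and 15.1% for Col9a3.

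Epithelium-like cells showed the opposite order for type IX collagen. Col9a2 was at 96.4 CPM in control and 17.7 CPM in mutant (-2.44, interval -2.78 to -2.12), Col9a3 at 83.5 and 16.1 CPM (-2.38) and Col9a1 at 46.3 and 12.8 CPM (-1.85). Col2a1 was at 134 and 104 CPM (-0.37) and Col27a1, a fibrillar chain of cartilage, at 59.2 and 15.2 CPM (-1.96). These cells were 2 finer clusters whose proportions differed, one led by Oc90, Epcam and Sftpc with 125 and 89 cells and one led by Krt5, Sfn and Krt15 with 87 and 217. Within the former, Col9a2 was at 152 and 36.8 CPM (-2.05), Col9a3 at 116 and 31.3 CPM (-1.88) and Col2a1 at 192 and 214 CPM (0.16), so these 2 type IX chains were lower there too and type II was not. Few cells carried them. Over the class, the highest 11 of 212 control cells held 61.9% of Col9a2 and 47.8% of Col9a3 UMIs. The highest 16 of 306 mutant cells held 61.2% and 79.8%. At least 10 Col9a2 UMIs were found in 15 control and 0 mutant cells. In mesothelium-like cells Col9a2 was at 17.5 and 3.48 CPM (-2.33), from 38 and 4 UMIs, and the ratio was 0.17 with classes set from marker levels.

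Among the FACITs of other tissues, Col14a1, which binds type I fibrils, had the lowest mutant-to-control ratio of all tested collagens in mesenchyme-like cells. It was at 141 CPM in control and 26.6 CPM in mutant there, a log2 ratio of -2.41 (-2.59 to -2.23), and it was lower in cluster 1 (205 and 28.8 CPM) and in cluster 4 (74.7 and 21.2 CPM) alike. It was also lower in mesothelium-like cells, at 159 and 10.4 CPM (-3.93, interval -4.89 to -3.10), in muscle-like cells, at 8.74 and 2.21 CPM, and in epithelium-like cells, at 22.4 and 5.06 CPM. In both sexes of mutant cluster 1 it was low, at 19.6 CPM in female-like and 35.3 CPM in male-like cells against 203 CPM in female-like control cells. Col14a1 thus passed 1.5-fold also where Col1a1 did not, in cluster 4 and mesothelium-like cells.

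Col12a1, its close relative, was at 162 and 109 CPM in mesenchyme-like cells (-0.57, not called). It was at 296 and 128 CPM in cluster 1 (-1.22) and at 20.2 and 52.4 CPM in cluster 4 (1.37). In cluster 4 the highest 19 of 361 control cells held 39.5% of its 177 UMIs. The highest 5 of the 91 mutant cells held 70.6% of its 109 UMIs. Col16a1 was lower in mesenchyme-like cells, at 54.9 and 18.9 CPM (-1.54), and in neuron-like cells, at 10.5 and 1.17 CPM (-3.18), and higher in mesothelium-like cells, at 25.8 and 70.4 CPM (1.45, interval 0.94 to 1.97). Col19a1, found in embryonic muscle, was higher in mesenchyme-like cells at 1.94 and 6.31 CPM (1.70, interval 1.10 to 2.32). In cluster 1 it was at 3.33 CPM in female-like control, 3.68 CPM in female-like mutant and 9.61 CPM in male-like mutant cells. The highest 26 of the 510 mutant cells there held all 53 of its UMIs. In muscle-like cells Col19a1 was lower, at 80.6 and 37.1 CPM (-1.12). These values place Col19a1 mainly in muscle-like and neural crest-like cells of both libraries, with 102 and 46.9 CPM in the latter.

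Col22a1, a collagen of the junction between muscle and tendon, was at 0.686 and 1.90 CPM in muscle-like cells (1.47), and in the myocyte cluster 7 at 0.509 and 9.53 CPM (4.23, from 2 and 30 UMIs). Its highest level was in neural crest-like cells, at 82.2 and 32.8 CPM. Col20a1 was also highest there, at 56.9 and 16.4 CPM. The neural crest-like class had 54 control and only 24 mutant cells, so its values are given as levels.

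All 3 main chains of type VI collagen, the beaded filaments that surround cells, were lower in the mutant library in mesenchyme-like, EC-like, muscle-like and neuron-like cells. In mesenchyme-like cells Col6a1 was at 299 and 98.5 CPM (-1.60), Col6a2 at 361 and 128 CPM (-1.50) and Col6a3 at 170 and 49.2 CPM (-1.79). In cluster 1 they were at 429 and 99.2, 468 and 123, and 274 and 51.0 CPM. In cluster 4 the differences were smaller, at 149 and 86.1, 229 and 124, and 57.1 and 36.6 CPM, with only Col6a2 called (-0.89). Mesothelium-like cells went the other way for Col6a1, at 41.0 CPM in control and 106 CPM in mutant (1.37, interval 0.97 to 1.78, and 5.87 with control at the floor after subtraction of the mesenchyme background), with Col6a2 at 79.1 and 122 CPM (0.62, not called). In muscle-like cells Col6a2 was at 47.4 and 14.2 CPM (-1.74), in neuron-like cells Col6a3 was at 8.02 and 0.777 CPM (-3.37), and in epithelium-like cells Col6a1 was at 9.74 and 1.08 CPM (-3.17). In EC-like cells the chains were at 19.8 and 6.75, 23.8 and 8.76, and 12.2 and 4.81 CPM, and subtracting the mesenchyme background turned the Col6a3 ratio to 0.87. Col6a1 there was 6.63% of its mesenchyme-like level in control and 6.85% in mutant, close to the median of the mesenchyme genes.

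The alternative type VI chains were highest in mesothelium-like cells, though in the mutant library only Col6a6 stood apart from the second class. Col6a6 was at 211 CPM in control and 43.5 CPM in mutant (-2.28, interval -2.73 to -1.85) and Col6a5 at 51.5 and 1.74 CPM (-4.89, interval -7.95 to -3.00), the latter from 112 and 2 UMIs. Col6a4 was at 8.74 and 6.08 CPM (-0.52, not called). Col6a6 was lower in muscle-like cells as well, at 18.3 and 3.08 CPM (-2.57). These chains sit side by side on chromosome 9, with 27917 bases between Col6a6 and Col6a5 and 28810 bases between Col6a5 and Col6a4.

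Of the basement membrane chains, Col4a5 and Col4a6 were measured most. In mesothelium-like cells Col4a5 was at 93.9 and 165 CPM (0.81, not called) and Col4a6 at 54.3 and 57.4 CPM (0.08). In epithelium-like cells Col4a6 was lower, at 47.7 and 14.1 CPM (-1.76), and within the Krt5 finer cluster it was at 50.3 and 16.7 CPM (-1.59), with Col4a5 at 69.9 and 41.6 CPM in the class (-0.75, not called). Col4a4 was lower in mesothelium-like cells, at 21.6 and 3.48 CPM (-2.64), and in epithelium-like cells, at 4.87 and 0.362 CPM. In muscle-like cells Col4a6 was at 2.23 and 0.616 CPM (-1.86). The basement membrane chains were thus lower or not called in every class where they were tested.

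The short-chain network chain Col8a1 was higher in mutant mesothelium-like cells, at 3.22 and 20.9 CPM (2.70, interval 1.44 to 4.15), and in epithelium-like cells, at 14.4 and 38.9 CPM (1.44, interval 1.01 to 1.88). In the Krt5 finer cluster it was at 37.9 and 57.1 CPM (0.59, interval 0.17 to 1.04), which is not beyond 1.5-fold, and cells of that cluster were 87 of the 212 control and 217 of the 306 mutant epithelium-like cells. Col8a2 was at 29.5 and 18.4 CPM in mesenchyme-like cells and was not called there.

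Col7a1, which forms anchoring fibrils under stratified epithelia, was at 17.04 and 7.05 CPM in epithelium-like cells (-1.27), and Col17a1, a membrane-spanning collagen of the hemidesmosome, at 46.5 and 28.7 CPM (-0.69, not called). In the Krt5 finer cluster, where both were concentrated, Col17a1 was at 124 and 42.8 CPM (-1.54, interval -1.85 to -1.22) and Col7a1 at 35.9 and 9.16 CPM (-1.97, interval -2.63 to -1.33). In muscle-like cells Col17a1 was at 1.24 and 0.308 CPM, from 29 and 6 UMIs. Both anchoring chains were thus lower within the keratin cluster by more than over the class.

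The other membrane-spanning collagens had patterns of their own. Col23a1 (ENSMUSG00000063564, chromosome 11, 51289920 to 51583918) was the collagen with the clearest endothelial signal. It was at 65.4 CPM in control and 176 CPM in mutant EC-like cells (1.43, interval 1.23 to 1.63), and its highest class was mesenchyme-like in control (109 CPM) and EC-like in mutant. In the larger finer cluster of EC-like cells it was at 61.2 and 185 CPM (1.60) and in the arterial one at 82.6 and 132 CPM. After thinning, 21.5% of control and 41.5% of mutant EC-like cells had a Col23a1 UMI (37.9% and 66.9% unthinned, at median depths of 20203 and 17313 UMIs), against 2.94% and 0.588% in the unnamed cluster. In mesenchyme-like cells it was at 109 and 124 CPM and was not called, and in muscle-like cells it was at 5.83 and 12.7 CPM (1.12).

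Col25a1, which takes part in the innervation of muscle, was not called in muscle-like cells as a whole, at 78.7 and 110 CPM (0.48). Its clusters moved apart, with 151 and 408 CPM in the myocyte cluster 7 (1.43, interval 1.29 to 1.58). It was at 42.2 and 44.2 CPM in cluster 0 and at 289 and 156 CPM in the shallow cluster 8 (-0.89). In mesenchyme-like cells it was at 123 and 162 CPM (0.39). Col13a1, a membrane collagen of the neuromuscular junction, was lower in mesenchyme-like cells, at 78.5 and 29.7 CPM (-1.40), and in cluster 4, where it was concentrated, at 135 and 65.9 CPM (-1.04). In muscle-like cells it was at 15.2 and 23.9 CPM (0.65, not called).

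Col26a1 had its highest control level in muscle-like cells, at 238 CPM, and was at 208 CPM there in mutant (-0.20), with 162 and 225 CPM in mesenchyme-like cells (0.48). It was lower in EC-like cells, at 30.0 and 12.6 CPM (-1.25). Col28a1, a collagen of peripheral nerves, was highest in control neural crest-like cells, with 104 of its 163 UMIs in that library and 110 CPM, against 1 UMI (2.34 CPM) in the 24 mutant cells. Neural crest-like cells also held 326 and 300.0 CPM of Col5a2, 180 and 11.7 CPM of Col14a1 and 158 and 86.7 CPM of Col5a1.

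The genes that modify, cut, bind and degrade collagens were followed as lists. Of 20 hydroxylation and folding genes, 4 were higher and 0 lower in EC-like cells (4.46% and 4.75% of all genes), and 3 were higher and 1 lower in mesenchyme-like cells (5.7% and 3.96%). P4ha2, a prolyl hydroxylase subunit that stabilises the helix, was at 7.65 and 71.1 CPM in EC-like cells (3.22) and at 31.0 and 141 CPM in mesenchyme-like cells (2.19). Plod2, a lysyl hydroxylase, was at 30.0 and 202 CPM in EC-like cells (2.75) and at 112 and 273 CPM in mesenchyme-like cells (1.28). P4ha1, P4ha2 and Plod2 were higher in 6 of the 7 classes. In cardiomyocyte-like cells only 16 of the 20 were tested. There, 0 were higher and 3 lower (P3h1, Fkbp10, Crtap), where 1.71% and 4.12% of all genes were.

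Of the 12 genes for cleavage of the propeptides and cross-linking, 11 were tested in EC-like cells, where 2 were higher and 1 lower (4.46% and 4.75% of all genes), and 12 in mesenchyme-like cells, where 1 was higher and 3 lower (5.7% and 3.96%). Loxl2, a lysyl oxidase, was at 52.7 and 225 CPM in EC-like cells (2.09), and Tll1, a protease of procollagens, at 28.3 and 296 CPM (3.38). Lox, the founding lysyl oxidase, was at 199 and 87.8 CPM in mesenchyme-like cells (-1.18). Of 15 fibril partner proteins, 14 were tested in mesenchyme-like cells, 0 were higher and 10 lower (5.7% and 3.96% of all genes), with a median of -1.26. They held Dcn, at 593 and 111 CPM, Postn, a matricellular protein, at 452 and 135 CPM, and Lum, another small proteoglycan, at 305 and 130.0 CPM. Dcn, Postn and Lum were also markers used to name mesenchyme-like clusters, and the fibril partners were not barred from the clustering.

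Of 9 collagen receptors, 0 were called in mesenchyme-like cells, where 5.7% of all genes were higher and 3.96% lower, so 0 is near those shares. In EC-like cells 1 of 9 was higher (Itgb1) and 1 lower (Itga1), where 4.46% and 4.75% of all genes were. Mesothelium-like cells had 2 of 6 tested higher (Itga1 and Ddr1, 7.16% of all genes). Neuron-like cells had 2 of 7 lower (Itga2 and Ddr2, 7.52%), and cardiomyocyte-like cells 1 of 3 (Ddr1, 4.12%). Of 9 degrading enzymes and their inhibitors, 7 were tested in EC-like cells, 3 were higher and 1 lower (4.46% and 4.75% of all genes), with Mmp2, a gelatinase, at 110.5 and 232 CPM (1.07). Of 7 transcription factors of collagen genes, 4 were higher and 1 lower in mesenchyme-like cells (5.7% and 3.96% of all genes). Sox9 was at 84.4 and 180 CPM and Scx, the tendon factor, at 19.4 and 73.8 CPM, while Creb3l1, which promotes type I collagen transcription, was at 87.0 and 32.7 CPM (-1.41). In mesothelium-like cells 4 of 5 tested factors were higher (7.16% of all genes), Scx, Sox9, Sox5 and Sox6.

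Col1a2 and Col3a1, whose ratios in mesenchyme-like cells were alike, are shown with the 120 bases before their start sites, with a CCAAT box or a TATAAA element in capitals. The sequences are RefSeq promoters of GRCm38.p6, on the plus strand at chr6:4505498-4505617 for Col1a2 and chr1:45311418-45311537 for Col3a1. The Col1a2 stretch lies inside the gene as GENCODE has it, with a start at 4504814.
Col1a2: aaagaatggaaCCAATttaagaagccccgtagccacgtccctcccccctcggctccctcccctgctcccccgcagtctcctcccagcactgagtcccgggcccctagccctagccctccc
Col3a1: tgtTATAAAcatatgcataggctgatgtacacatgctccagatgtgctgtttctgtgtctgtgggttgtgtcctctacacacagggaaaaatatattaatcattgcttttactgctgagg
In the 250 bases before the start site, on either strand, CCAAT was found in 10 of 33 collagen promoters (30.3%; 31 of the 40 genes matched) and in 33.8% of 32851 promoters of all genes. TATAAA was found in 5 of the 33 (15.2%) and in 12.4% of all. A match is a description of letters, not a site.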

How the data were processed

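The authors deposited raw UMI counts per gene and cell, made from 10x Genomics 5′ reads with Cell Ranger 7.1.0 on mm10 (GRCm38), with no normalization; whether intronic reads were counted is not given in the sources used here. Kept cells were integrated with Seurat 5.3.0 (canonical correlation anchors, cell cycle regressed, 2000 variable genes, 30 components, 20 neighbours). Barred from the variable genes were 99 genes. They were all collagens, Xist, Y-linked genes and the lists for hydroxylation and folding, cleavage and cross-linking, receptors and degradation. The fibril partner proteins and the transcription factors of collagen genes were not barred. Resolution 0.3, the lowest of those tried with at least 15 clusters, gave 16. A cluster was named when at least 3 markers of a list were raised and no other list had more among its 10 leading genes. Doublets were kept, since Scrublet (scanpy 1.11.5) marked 0 control cells and 1 mutant cell by its own threshold. Both libraries came from 3 pooled embryos, so nothing measures the spread between embryos.

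CPM has an exact Poisson interval, a log2 ratio a conditional exact binomial interval and a share of cells a Clopper-Pearson interval, each at 95% and for counting error only. A gene at 0 in a library entered a median at a floor of 3 counts. For shares of cells, every cell was thinned to 5000 UMIs, and 61 control and 173 mutant cells were too shallow for this. Only the calculation of the ratios was checked, on simulated Poisson counts with known changes, which hold no spread between cells or embryos. The members and gene lists were chosen with earlier results of these data known. The naming rule gave full values to collagens of at least 500 CPM in a class. It also gave them to the 5 largest differences each way per class. Other collagens, and Acan, Cnmd, Hapln1 and Matn4, were named after their values were seen. Alternatives covered cell filters, doublets, integration, resolution 0.8, marker-based classes, scaling (edgeR 4.0.16 TMM or a median ratio over genes of 50 UMIs), weighting by cell, thinning, minimums of 1 and 100 UMIs, G1 cells, female-like cells, subtraction of a mesenchyme background and single clusters. R 4.3.3 and Python 3.11.15 were used, with scipy 1.17.1 and numpy 2.4.6 for intervals, pandas 2.3.3 for tables and matplotlib 3.10.9 for plots. Coordinates of genes and exons are those of GENCODE on GRCm38, and those of promoters are from RefSeq.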

Additional observations from a re-analysis of the deposited data

Results flagged for a closer look

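These genes had counting intervals beyond 1.5-fold in opposite directions in different cell classes. The differences between classes were not tested, since each class was 1 library per genotype.

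Col6a1 had a log2 ratio of 1.37 in mesothelium-like cells, against -1.55 in EC-like, -1.60 in mesenchyme-like, -1.49 in branchial muscle-like, -3.17 in epithelium-like and -2.62 in neuron-like cells. Col9a1 had ratios of 3.0 in EC-like and 1.68 in branchial muscle-like cells and -1.85 in epithelium-like cells. Col9a3 had a ratio of 4.30 in EC-like cells, from 2 control and 167 mutant UMIs, and -1.04 in mesenchyme-like, -2.38 in epithelium-like and -1.40 in neuron-like cells. Col16a1 had a ratio of 1.45 in mesothelium-like cells and -1.54 in mesenchyme-like and -3.18 in neuron-like cells. Col19a1 had a ratio of 1.70 in mesenchyme-like cells and -1.12 in branchial muscle-like and -2.71 in neuron-like cells. In female-like cells of mesenchyme-like cluster 1, though, Col19a1 was at 3.33 CPM in control and 3.68 CPM in mutant.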

How the results depend on the processing

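No paired analysis was possible because each genotype was 1 library. Of 102 medians over the collagens under the alternatives, 93 stayed within the counting error of the members, 8 moved and 1 reversed. A median could count as reversed only where its main value exceeded that error. The EC-like median, -0.17 in the main setting, thus spanned -0.39 to 0.32 without counting as reversed. The cardiomyocyte-like median, -1.15 in the main setting, spanned -1.42 to -0.36. Of 784 ratios of 57 named gene and class pairs, 616 stayed, 161 moved and 7 reversed. The causes were not tested. The mesenchyme-like median was -0.87 in G1 cells, -1.15 with at least 1000 genes per cell, -0.92 after thinning, -1.20 in cluster 1 alone and 0.10 in cluster 4 alone. In cluster 4 alone Col1a1 (0.10) and Col1a2 (0.36) reversed. The epithelium-like median was -1.18 in female-like cells, and the branchial muscle-like median -1.11 after thinning and -1.13 after subtraction of the mesenchyme background. That subtraction, which set low values to a floor of 3 counts, moved the neuron-like median to -0.0053. It also reversed Col1a1 (0.13) and Col6a3 (0.87) in EC-like and Col1a1 (1.22) in cardiomyocyte-like cells. With classes from marker levels, Col11a1 reversed in branchial muscle-like cells (-1.23) and Col9a2 in mesothelium-like cells (0.17).

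The Col23a1 ratio in EC-like cells stayed between 1.22 and 1.55, that of Col2a1 in branchial muscle-like cells spanned 0.76 to 7.25, and that of Col1a1 in mesothelium-like cells -0.59 to 0.17. EC-like collagens lower in mutant numbered 7 in the main setting, 2 without integration and 4 with marker classes. The mesenchyme-like collagens higher numbered 1, against 5 in cluster 4 alone, and lower 15, against 4. Neuron-like collagens lower numbered 15 of 23 tested, against 7 after thinning and 8 with at least 100 UMIs. Fewer collagens were tested under both of those settings. Shares of all genes were taken only for the main classes and clusters 1 and 4, so counts under other settings have none beside them. Cardiomyocyte-like collagens lower numbered 5, against 0 without high doublet scores; thinning gave that class no value. TMM scaling shifted all genes by 0.12 in EC-like and neuron-like, 0.15 in cardiomyocyte-like and -0.12 in mesothelium-like cells. Untested collagens were most numerous in mesothelium-like, neuron-like and cardiomyocyte-like cells, at 15, 17 and 29 of 40.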
